A study of Macaca mulatta with 6 samples.

Results

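The families of miR-25, miR-92, miR-363 and miR-32 and of miR-19 were followed in the plasma of rhesus monkeys before and after cerebral ischemia. The rule for the members uses names and no measured value, although the families were picked with earlier results of these data known. An entry was kept when its name, after removal of the species prefix, the arm and the copy number, read miR-25, miR-92, miR-363, miR-32 or miR-19, with or without a closing letter. This gave 14 of the 2046 entries in the deposited table, and 12 of the 14 were tested among 807 entries with a normalized count of at least 10 in at least 3 libraries.

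The study compared circulating small RNA of 3 adult male rhesus monkeys after and before MCAO, the occlusion of the middle cerebral artery as a stroke model. All animals were anesthetised with ketamine and propofol, and a blood clot was placed through a microcatheter into the M1 segment of the right middle cerebral artery. The group after ischemia holds 3 plasma libraries from blood drawn 3 h after stroke onset according to the methods, although the label of a figure states 2 h. The group before ischemia holds 3 plasma libraries of baseline blood. Only monkeys whose M1 segment was still closed at 3 h were kept, and the 6 samples analysed here hold no sham-operated group, so that ischemia cannot be told apart here from the time under anesthesia and the procedure. Equal replicate numbers were read as 1 animal, and the animals are called monkeys 1, 2 and 3.

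MicroRNAs are cut from hairpin precursors, each of which can give a 5p and a 3p arm. The seed, bases 2 to 8 of the mature strand, is the stretch that chiefly selects target mRNAs, and miRNAs with the same seed form a family. miR-92a and the miR-19 miRNAs are made from the miR-17-92 cluster, which is best known as oncomiR-1 for promoting cell growth and survival, and from its paralog the miR-106a-363 cluster, which also gives miR-363. miR-25 comes from the miR-106b-25 cluster. miR-92a is known in mouse as a brake on the growth of new vessels after ischemia. miR-25 and miR-92a are abundant in blood cells, red blood cells included.

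The mature sequences are shown because the families are defined by them. They are those of the deposited table, written 5′ to 3′ with T for U and with the seed in capitals. In the names, R and L count bases gained or lost at the 3′ and 5′ end against the reference miRNA, ss marks a substitution, and mml, mmu, rno, mdo and oan stand for rhesus, mouse, rat, opossum and platypus names. The first 6 entries share the seed ATTGCAC, which no other entry of the table carries. The next 2 share GTGCAAA, which 2 entries outside the members also carry, 1 of them tested.
mml-miR-25: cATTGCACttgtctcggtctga
mml-miR-92a-3p: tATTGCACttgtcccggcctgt
mml-miR-92b-3p: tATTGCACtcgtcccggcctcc
mml-miR-363-3p_R-1: aATTGCACggtatccatctgt
mml-miR-32-5p: tATTGCACattactaagttgc
oan-miR-92b: tATTGCACttgtcccagcctgt
mml-miR-19b: tGTGCAAAtccatgcaaaactga
mml-miR-19a-3p: tGTGCAAAtctatgcaaaactga
The opposite arms carry other seeds. Those that were tested follow, since they are used below to compare the arms of a precursor.
rno-miR-25-5p_R+1_2ss11AT12CT: aGGCGGAGacttgggcaattgct
mdo-miR-92a-1-5p_1ss12AG: aGGTTGGGatcggttgcaatgct
mml-miR-92b-5p_R-1: aGGGACGGgacgcggtgcagtgt
mml-miR-32-3p_L+1: cAATTTAGtgtgtgtgatatt

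Outside the seed the members differ. Positions are counted from 1 at the 5′ end, with the base of mml-miR-92a-3p first. mml-miR-92b-3p differs from it by T10C, G21C and T22C, and mml-miR-25 by T1C, C14T, C18T and T22A. oan-miR-92b differs from it by the single substitution G16A. The 2 miR-19 sequences differ by C11T, with the base of mml-miR-19b first.

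Total counts per library were 6036831 to 9737589 after ischemia and 10745499 to 15548693 before ischemia. The values used are the authors' normalized counts, in which 1 count is worth 1.28 to 1.86 in libraries after ischemia and 0.565 to 0.779 in those before ischemia. At an adjusted p under 0.05 (limma, Benjamini-Hochberg), the share of tested entries called higher in plasma after ischemia was 1.98%, and the share called lower was 3.47%. The red blood cell list (11 entries, 10 tested, 0 called by limma and 4 higher at an unadjusted p under 0.05, none at 0 throughout a group) made up 13.8% to 34.2% of counts after ischemia and 7.05% to 19.7% before ischemia. In every library mml-miR-486-5p held most of this sum. Its normalized counts were 4084105, 1405556 and 2647856 in monkeys 1, 2 and 3 after ischemia, against 525271, 555368 and 1341010 before ischemia. The groups of mml-miR-451_R-1 overlapped, and it differed by 0.34 on the log2 scale (limma, adjusted p = 0.839). The 2 liver entries summed to 0.0651% to 1.82% after ischemia and 0.146% to 1.36% before ischemia, while the 4 entries of the intestinal epithelium list summed to 1.40% to 7.84% after ischemia and 0.0894% to 0.190% before ischemia and were all called higher. Platelet markers summed to 3.91% to 6.11% after ischemia and 5.14% to 8.26% before ischemia, and leukocyte markers to 3.49% to 3.94% after ischemia and 2.09% to 2.73% before ischemia. Most of the platelet sum is mml-miR-223_R+2 and mml-miR-126. Of the 7 tested platelet entries, 5 had a log2 fold change below 0. The 2 above 0 were mml-miR-197-3p (1.37, adjusted p = 0.0785, limma) and hsa-miR-126-5p (0.54, adjusted p = 0.276, limma). Most of the leukocyte sum is mml-miR-142-5p_L+2R-2, which was called higher, while mml-miR-142-3p_R-1 of the same list was called lower (log2 fold change -3.04, adjusted p = 0.00937, limma).

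The members together made up a smaller share of the plasma counts after ischemia. They held 1.64%, 0.960% and 1.85% of the counts in monkeys 1, 2 and 3 after ischemia, against 2.66%, 2.99% and 5.64% before ischemia, and the groups did not overlap. Nearly all of this was the family with the seed ATTGCAC, with 1.43% ± 0.450 after ischemia and 3.61% ± 1.60 before ischemia (SD, n = 3 each). The miR-19 seed pair held 0.0448%, 0.0298% and 0.0672% after ischemia, against 0.0525%, 0.204% and 0.171% before ischemia, and there the groups overlapped. These sums are given without a test. They depend on everything else in the library, including the red blood cell share above, whose part in them was not tested.

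miR-92a-3p was the only member called lower, although miR-32-5p and miR-363-3p also had less after ischemia in each monkey. mml-miR-92a-3p had normalized counts of 37924, 28083 and 52471 in monkeys 1, 2 and 3 after ischemia, against 112218, 100374 and 218518 before ischemia. The highest value after ischemia was below the lowest value before ischemia, and each monkey had less after ischemia. It fell by 1.82 on the log2 scale (SE 0.381, 95% interval -2.69 to -0.95, adjusted p = 0.0314, limma), which is 3.53-fold lower. The log2 differences of the single monkeys were -1.57, -1.84 and -2.06. Ordered by level within a library, it stood at places 47, 52 and 37 of all entries after ischemia and at places 19, 28 and 8 before ischemia.

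With 1 of 12 tested members called lower, against 3.47% of all tested entries, and 0 called higher, against 1.98%, the members' calls rest on this 1 entry. At an unadjusted p under 0.05, 4 of 12 members passed (1 higher and 3 lower), beside 22.3% of all tested entries, whereas scaling by library totals gave 0 higher and 6 lower, or 0 and 7 with the replicate block as well. In 5 of 12 members the groups did not overlap, beside 26.9% of all tested entries. Both counts include oan-miR-92b, whose lower values after ischemia follow from the filter, which it passed only through the libraries before ischemia, and neither count is read as a result about the members. Leaving out any 1 of the libraries after ischemia ended the call on mml-miR-92a-3p (adjusted p = 0.102, 0.0594 and 0.0508 without monkey 1, 2 or 3, limma), as did leaving out that of monkey 3 before ischemia (adjusted p = 0.0778, limma). It was also lost without both libraries of monkey 1 (adjusted p = 0.139, limma) or of monkey 3 (adjusted p = 0.150, limma). Its log2 fold change lay between -2.05 and -1.47 over these left-out libraries. In plasma, fewer cells releasing a miRNA and less of it released per cell cannot be told apart.

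**Figure D1:**
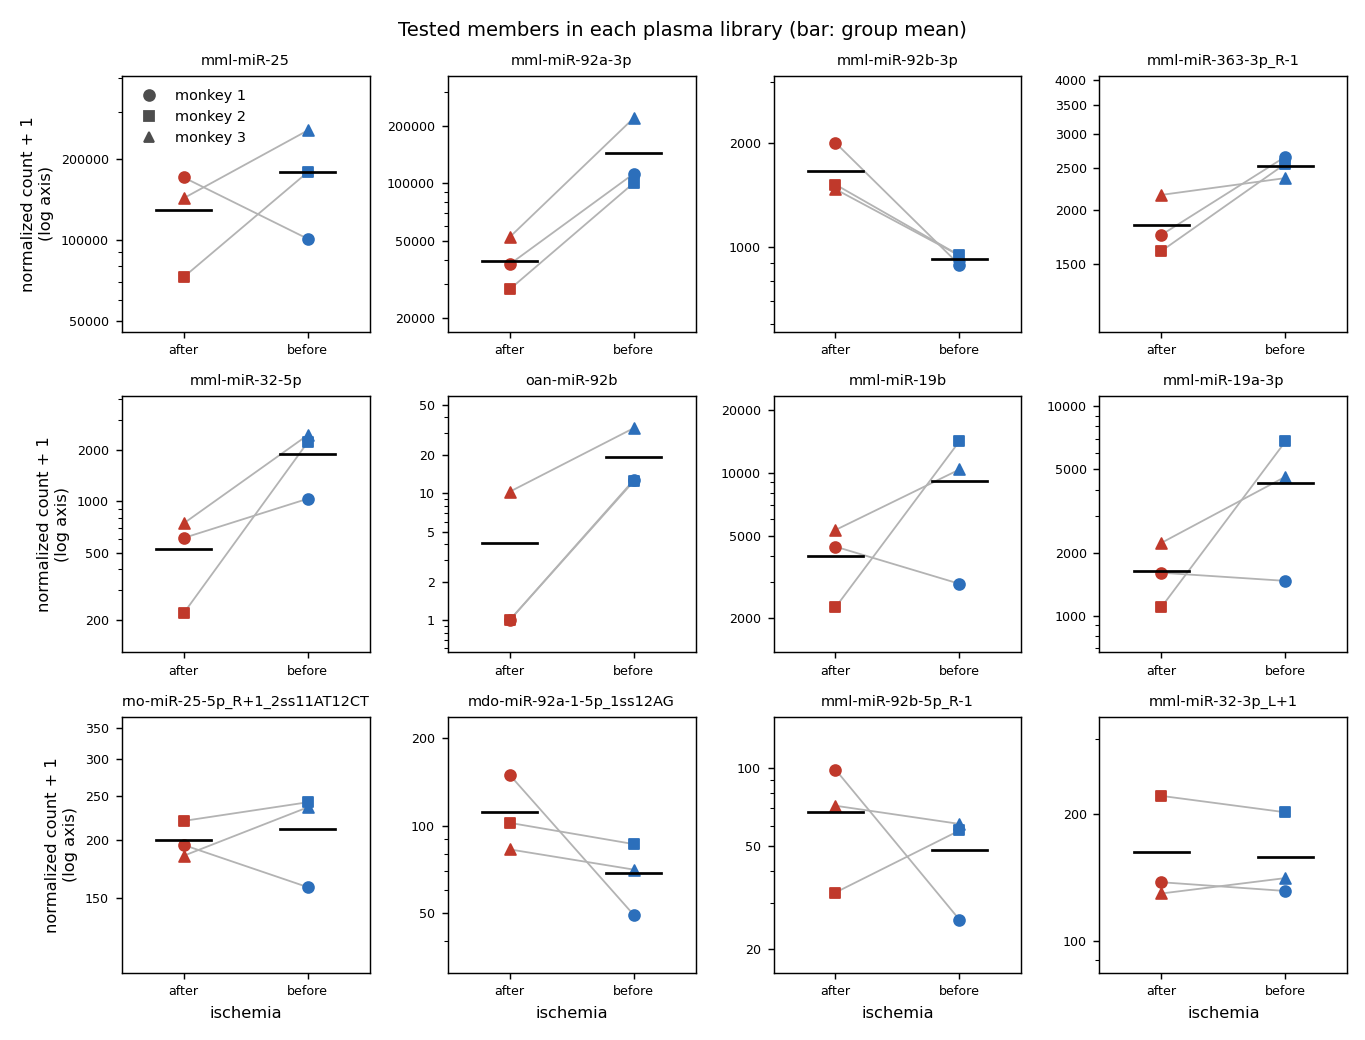
Normalized count plus 1 (log axis, a separate range in each panel) of the 12 tested members in each plasma library after ischemia (red) and before ischemia (blue). Circles, squares and triangles are monkeys 1, 2 and 3, grey lines join the libraries of a monkey and bars are group means. The mml-miR-92a-3p points after ischemia all lie below those before ischemia, the mml-miR-92b-3p points all lie above, and those of mml-miR-25 overlap.

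miR-25 was the most abundant member in 5 of the 6 libraries, and its groups overlapped. mml-miR-25 had normalized counts of 171293, 72839 and 143219 after ischemia, against 101260, 178933 and 255941 before ischemia. The direction differed between monkeys, with log2 differences of 0.76, -1.30 and -0.84. Its log2 fold change of -0.46 did not pass the test (SE 0.438, 95% interval -1.46 to 0.54, adjusted p = 0.579, limma), and it lay between -1.07 and -0.04 with libraries left out. The 95% interval holds both no difference and a decrease of more than 1 log2 unit.

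miR-92b-3p is made from a gene of its own and shares its seed with miR-92a-3p, but its fold change had the opposite sign. mml-miR-92b-3p had normalized counts of 2002, 1516 and 1469 after ischemia, against 887, 945 and 944 before ischemia. The groups did not overlap and each monkey had more after ischemia. The log2 fold change was 0.83 (SE 0.311, 95% interval 0.12 to 1.54), with an adjusted p of 0.160 (limma), which missed the threshold, and it was 0.44 with scaling by library totals. It rested on 790 to 1669 counts in a library, and its values before ischemia lay within a narrow range (925 ± 33.1, SD, n = 3).

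miR-32-5p, which is made from a hairpin inside the gene TMEM245, had the largest negative fold change among members above 100 normalized counts. mml-miR-32-5p had normalized counts of 608, 219 and 740.2 after ischemia, against 1033, 2213 and 2439.9 before ischemia. The groups did not overlap. Its log2 fold change was -1.94 (SE 0.550, 95% interval -3.19 to -0.68), with an adjusted p of 0.0876 (limma). Monkey 2 had the largest difference, -3.33 on the log2 scale, against -0.76 and -1.72 in monkeys 1 and 3. Without the library of monkey 2 after ischemia the log2 fold change was -1.40, and with scaling by library totals it was -2.33 with an adjusted p of 0.0356 (limma).

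miR-363-3p, the last miRNA of the miR-106a-363 cluster, had a smaller difference. mml-miR-363-3p_R-1 had normalized counts of 1749.6, 1605 and 2165 after ischemia, against 2653, 2556 and 2368 before ischemia. These groups did not overlap either, although the log2 fold change was only -0.47 (SE 0.295, adjusted p = 0.387, limma).

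The entry named oan-miR-92b was rare. It had normalized counts of 0, 0 and 9.30 after ischemia, against 11.7, 11.4 and 31.7 before ischemia, and it passed the filter only through its values before ischemia. In total 5 counts after ischemia and 88 counts before ischemia were behind these values. Its level was 0.0104% to 0.0177% of that of mml-miR-92a-3p in the 4 libraries where it was above 0, and the 2 sequences differ by 1 base. Its log2 fold change of -2.99 (SE 1.29, adjusted p = 0.215, limma) depends on the pseudocount, and reads of miR-92a with a changed base cannot be told apart from a separate miRNA here.

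The 2 miR-19 miRNAs varied together and were spread widely before ischemia. mml-miR-19b had normalized counts of 4419, 2255 and 5314 after ischemia, against 2927, 14215 and 10389 before ischemia. mml-miR-19a-3p had normalized counts of 1602, 1099 and 2226 after ischemia, against 1465, 6781 and 4605 before ischemia. In both, monkey 1 before ischemia was low and lay among the libraries after ischemia, so that the groups overlapped. The log2 differences of mml-miR-19b were 0.59, -2.66 and -0.97 in monkeys 1, 2 and 3, and those of mml-miR-19a-3p were 0.13, -2.62 and -1.05. The sign in monkey 1 depended on the scaling. As shares of the library counts its log2 differences were -0.09 for mml-miR-19b and -0.55 for mml-miR-19a-3p. The log2 fold changes of -1.01 for mml-miR-19b (SE 0.602, adjusted p = 0.363, limma) and -1.18 for mml-miR-19a-3p (SE 0.569, adjusted p = 0.265, limma) did not pass the test. Without the library of monkey 1 before ischemia they were -1.69 for mml-miR-19b and -1.82 for mml-miR-19a-3p, and without that of monkey 2 before ischemia they were -0.55 and -0.72. mml-miR-19a-3p was called lower when scaling by library totals and the replicate block were used together (log2 fold change -1.57, adjusted p = 0.048, limma).

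**Figure D2:**
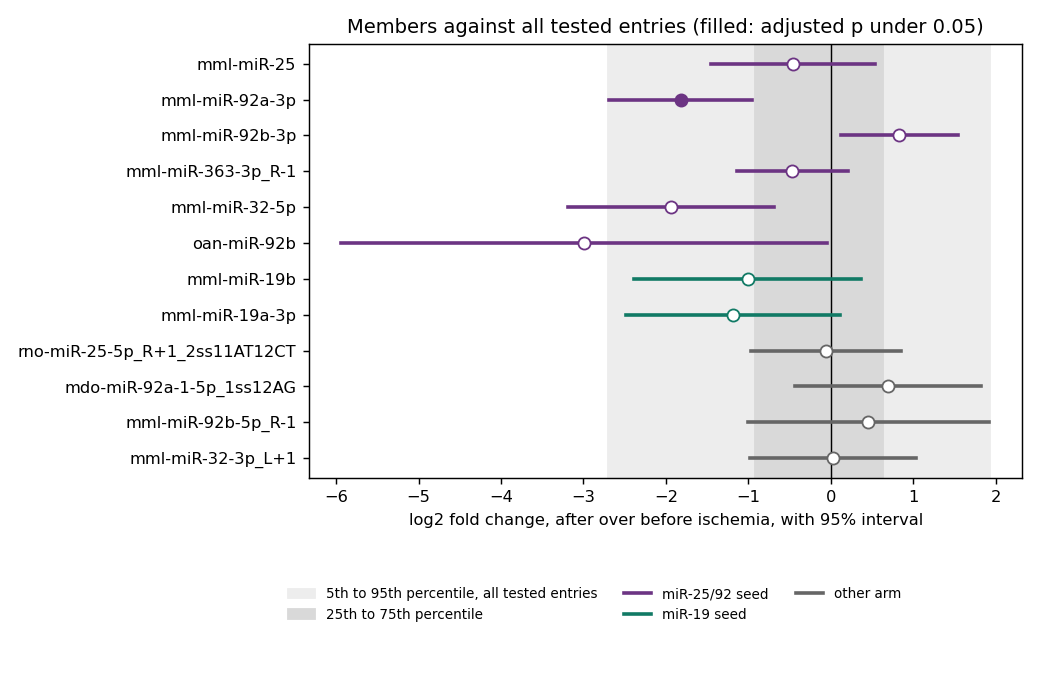
Log2 fold change, after over before ischemia, of the 12 tested members, with 95% intervals from limma (violet, seed ATTGCAC; green, miR-19 seed; grey, opposite arms; filled, adjusted p under 0.05). Shaded bands hold all 807 tested entries from the 25th to the 75th percentile (-0.92 to 0.63) and from the 5th to the 95th (-2.70 to 1.93). The interval of mml-miR-92a-3p runs from -2.69 to -0.95, and it is the only member with an adjusted p under 0.05, while the intervals of mml-miR-32-5p and mml-miR-92b-3p lie on opposite sides of 0.

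The opposite arms were low. rno-miR-25-5p_R+1_2ss11AT12CT had 194, 219 and 184 normalized counts after ischemia, against 157, 241 and 235 before ischemia, with a log2 fold change of -0.06 (SE 0.397, adjusted p = 0.957, limma). mml-miR-32-3p_L+1 had 136, 219 and 128 normalized counts after ischemia, against 130.1, 200.4 and 139.7 before ischemia, with a log2 fold change of 0.03 (SE 0.441, adjusted p = 0.981, limma). The groups overlapped in both arms.

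mdo-miR-92a-1-5p_1ss12AG had 149, 101 and 81.8 normalized counts after ischemia, against 48.3, 85.4 and 69.6 before ischemia. Each monkey had more after ischemia, with log2 differences of 1.60, 0.24 and 0.23, but the groups overlapped and the log2 fold change of 0.69 did not pass the test (SE 0.494, adjusted p = 0.442, limma). As a share of the library counts, monkey 3 had less after ischemia. mml-miR-92b-5p_R-1 had 97.9, 32.1 and 70.7 normalized counts after ischemia, against 24.9, 56.5 and 59.9 before ischemia, with a log2 fold change of 0.46 (SE 0.642, adjusted p = 0.732, limma). These arms rested on 25 to 127 counts in a library.

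Of the 14 members, 2 were below the filter. mmu-miR-19b-1-5p had 8.27, 0 and 11.2 normalized counts after ischemia, against 0, 9.41 and 3.39 before ischemia. mml-miR-363-5p was at 0 in all libraries after ischemia and at 0, 13.4 and 4.52 before ischemia, where the 2 libraries above 0 held 20 and 8 counts. A value of 0 allows up to 3 counts, or 3.85 to 5.58 normalized counts in a library after ischemia. Of the mml-miR-363-5p values before ischemia, 4.52 lies within this range and 13.4, in 1 library, lies above it.

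The makeup of the family with the seed ATTGCAC differed between the groups. miR-25 held 80.2%, 69.9% and 71.6% of the counts with this seed in monkeys 1, 2 and 3 after ischemia, against 46.4%, 62.8% and 53.3% before ischemia. miR-92a-3p held 17.8%, 26.9% and 26.2% after ischemia, against 51.5%, 35.2% and 45.5% before ischemia. The groups overlapped in neither. Both miRNAs thus made up nearly the whole seed family in each library, and miR-92a-3p was above miR-25 in the library of monkey 1 before ischemia alone.

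The minor members differed among themselves in the same measure. miR-92b-3p held 1.04% ± 0.371 of the seed family after ischemia and 0.312% ± 0.107 before ischemia (SD, n = 3 each). miR-32-5p held 0.288% ± 0.0799 after ischemia and 0.586% ± 0.166 before ischemia (SD, n = 3 each). miR-363-3p held 1.15% ± 0.365 after ischemia and 0.869% ± 0.363 before ischemia (SD, n = 3 each), a difference smaller than the spread. Shares within a family sum to a fixed whole, so that a lower share of miR-92a-3p raises the others.

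**Figure D3:**
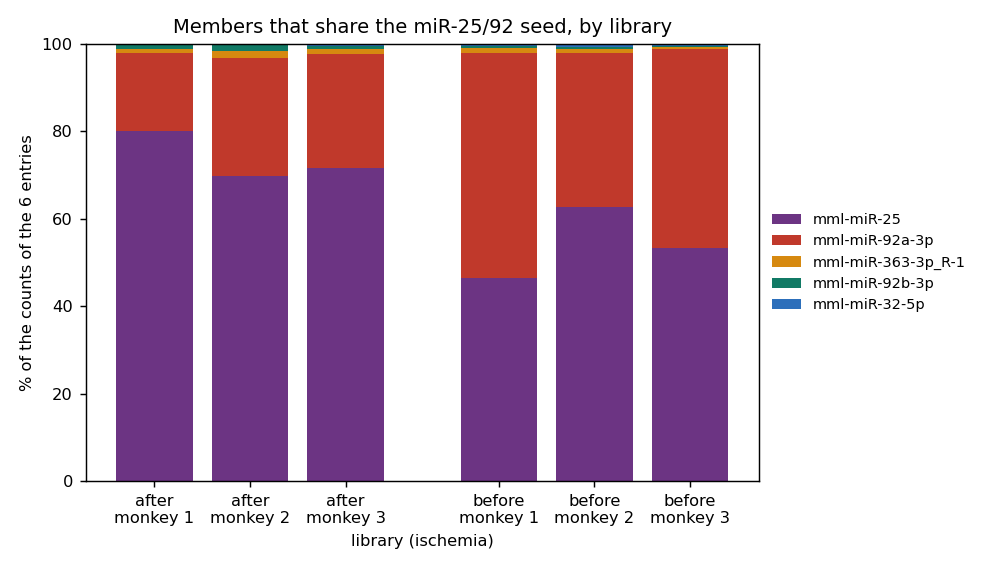
Percent of the counts with the seed ATTGCAC held by each member in each library, after ischemia on the left and before ischemia on the right, with oan-miR-92b (under 0.01%) not drawn. miR-25 takes 69.9% to 80.2% after ischemia and 46.4% to 62.8% before ischemia.

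Ratios of members within a library do not depend on how libraries were scaled to each other. Of 10 ratios compared, 5 had groups that did not overlap, and no share over other pairs of entries was computed beside this count. All of these except miR-32-3p over miR-32-5p contain miR-92a-3p, so that they are not separate results. Each of the 5 reached an exact permutation p of 0.1 (two-sided, n = 3 each), the smallest that 3 against 3 libraries allow. After Benjamini-Hochberg adjustment over the 10 ratios it was 0.2. No ratio could therefore pass a threshold of 0.05.

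The ratio of miR-92a-3p to miR-25 was 0.221, 0.386 and 0.366 after ischemia, against 1.11, 0.561 and 0.854 before ischemia. The difference of the mean log2 ratios was -1.36, and it had the same sign in 3 of 3 monkeys (exact permutation p = 0.1, adjusted p = 0.2). The largest separation was against miR-92b-3p, which differs from miR-92a-3p at 3 positions. That ratio was 18.9, 18.5 and 35.7 after ischemia, against 127, 106.2 and 232 before ischemia, a difference of -2.65 on the log2 scale. The 3 monkeys differed by -2.74, -2.52 and -2.70, a tighter set than the -2.32, -0.54 and -1.22 of the ratio to miR-25.

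Against miR-363-3p, which is encoded beside a second copy of miR-92a, the ratio of miR-92a-3p was 21.7, 17.5 and 24.2 after ischemia, against 42.3, 39.3 and 92.3 before ischemia, a log2 difference of -1.35 in the same direction in each monkey. Against miR-32-5p the log2 ratio differed by 0.12 (exact permutation p = 0.9), with monkeys in both directions. Against miR-19b it differed by -0.81 (exact permutation p = 0.4), and by -0.26 or -1.48 without the library of monkey 1 or of monkey 2 before ischemia. The ratio of miR-19a-3p to miR-19b was 0.363 to 0.487 after ischemia and 0.443 to 0.501 before ischemia, although the levels of both differed by several-fold between libraries.

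The opposite arms were also compared with the main arms. mdo-miR-92a-1-5p_1ss12AG stood at 0.393%, 0.361% and 0.156% of miR-92a-3p after ischemia, against 0.0430%, 0.0851% and 0.0318% before ischemia, a log2 difference of 2.51 in the same direction in each monkey. miR-92a-3p is also made from the other copy of its gene, so that this is not the arm ratio of 1 precursor. miR-32-3p stood at 22.4% of miR-32-5p in monkey 1, at the same level as it in monkey 2 and at 17.3% in monkey 3 after ischemia, against 12.6%, 9.05% and 5.72% before ischemia, a log2 difference of 1.96. The equal level is an exact tie, since mml-miR-32-5p, mml-miR-32-3p_L+1 and rno-miR-25-5p_R+1_2ss11AT12CT each held 171 counts in the library of monkey 2 after ischemia, and without that library the log2 difference was 1.19. For miR-25 and miR-92b the arm ratios overlapped between the groups (log2 differences of 0.40 and -0.38, exact permutation p = 0.6 and 0.5).

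**Figure D4:**
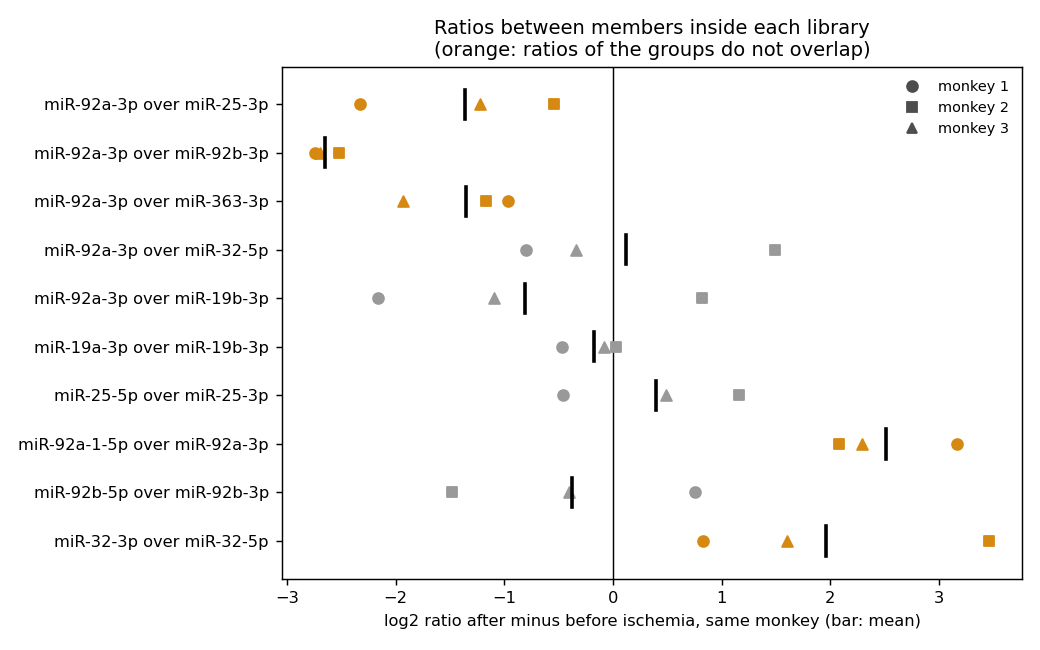
Difference of the log2 ratio, after minus before ischemia, within each monkey for the 10 ratios between members (circles, squares and triangles are monkeys 1, 2 and 3, bars are means, and orange marks ratios whose group ranges do not overlap). The ratio of miR-92a-3p to miR-92b-3p differs by -2.74 to -2.52 in the 3 monkeys, and its ratio to miR-32-5p lies on both sides of 0.

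The clusters that encode the members gave a further comparison. In the annotation of the rhesus genome used here for names, MIR25 lies within MCM7, a helicase subunit of DNA replication, next to MIR93 and MIR106B. MIR363, MIR92A-2 and MIR19B-2 lie beside MIR20B, MIR18B and MIR106A, and MIR19A lies between MIR18A and MIR20A. The other miRNAs of these clusters, mostly of the miR-17 and miR-18 families, had 18 entries, of which 14 were tested.

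Of the 14 partners, 0 were called higher or lower by limma, and 1 was higher at an unadjusted p under 0.05. This was mml-miR-93-3p_R+1, with a log2 fold change of 1.13 (adjusted p = 0.0833, limma). Of the partners, 8 had a log2 fold change above 0 and 6 below 0, with a median of 0.09, while 4 of the 12 members were above 0 and 8 below, with a median of -0.46. The members below 0 include oan-miR-92b, whose direction follows from the filter. The partners above 0 include 1 sequence under both of its names, mml-miR-17-5p_R-1 and mml-miR-106a-5p_R-1_1ss1AC. Over all 807 tested entries the median was -0.06, with 383 above 0 and 424 below. With scaling by library totals the median of all entries moved by -0.37, that of the partners became -0.30 (4 above 0 and 10 below) and that of the members -0.85 (3 above 0 and 9 below).

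The main 5p miRNAs encoded with miR-92a had log2 fold changes between -0.10 and 0.52. mml-miR-17-5p_R-1, the first miRNA of the miR-17-92 cluster, had 43114, 31941 and 36333 normalized counts after ischemia, against 25054, 30765 and 32600 before ischemia, with a log2 fold change of 0.33 (adjusted p = 0.491, limma). This entry has the same sequence and values as mml-miR-106a-5p_R-1_1ss1AC, so that reads of the 2 clusters cannot be told apart there. For miR-20a-5p it was 0.52 (adjusted p = 0.276, limma). miR-18a-5p was at -0.02 and miR-20b-5p at -0.10. From the transcript of miR-25, miR-93-5p was at -0.26 and miR-106b-5p at 0.02. The difference between miR-92a-3p and these partners was not tested.

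**Figure D5:**
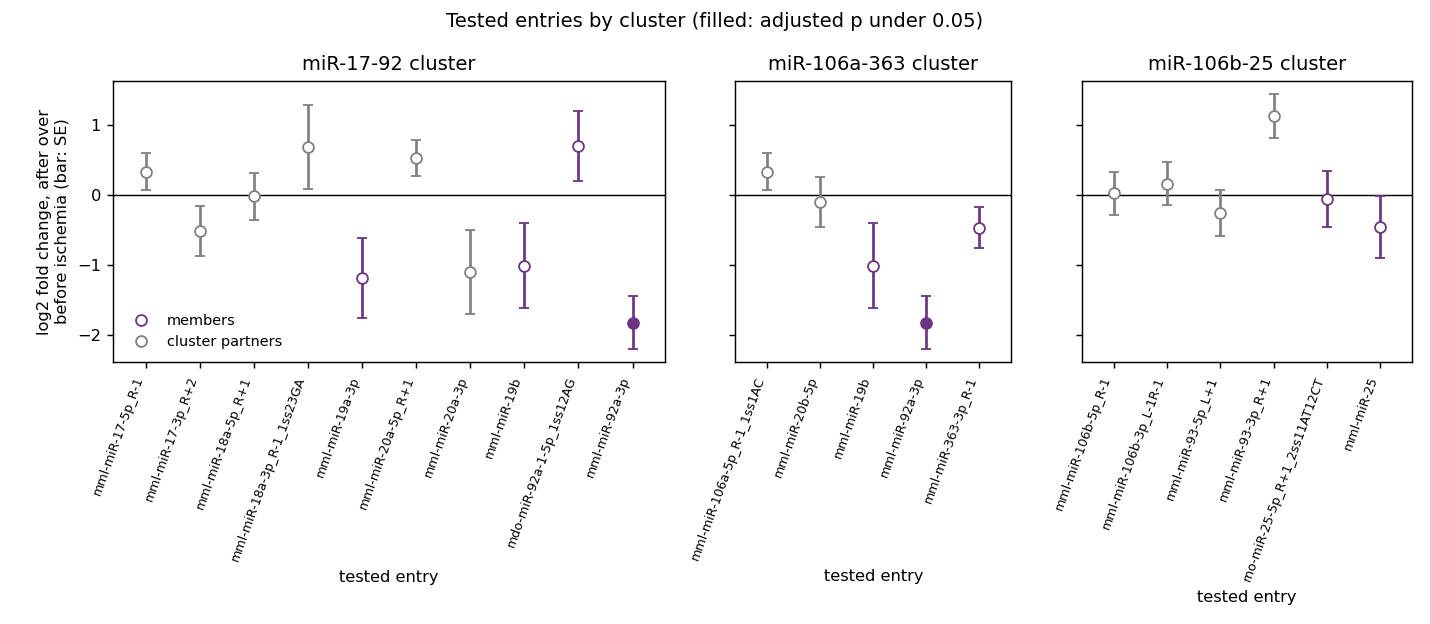
Log2 fold change, after over before ischemia, of the tested members of each cluster and of 12 of their 14 tested partners (2 low entries with mouse names are not drawn), with bars of 1 SE, members in violet, partners in grey and filled markers for an adjusted p under 0.05. mml-miR-92a-3p at -1.82 is the only filled entry, drawn like mml-miR-19b in both clusters that hold a copy, and the 14 partners have a median of 0.09.

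The red blood cell list had a median log2 fold change of 0.94 over its 10 tested entries (8 above 0 and 2 below). Several of these are variants of miR-486-5p or miR-451, and the 2 below 0 are both miR-451 variants. The part of the list in the values of the members was not tested. The hemolysis measure, log2 of miR-451, a red cell miRNA, over miR-23a, was 2.19, -0.16 and 1.86 after ischemia, against 0.33, 0.11 and 1.90 before ischemia (exact permutation p = 0.8). The library of monkey 2 after ischemia had the lowest hemolysis measure of the 6. It also had the lowest values of mml-miR-25, mml-miR-92a-3p, mml-miR-32-5p and both miR-19 miRNAs. The library of monkey 1 after ischemia, with the highest measure, held 37924 normalized counts of mml-miR-92a-3p. Those of monkeys 1 and 2 before ischemia, with low measures, held 112218 and 100374. Those of monkey 3, with measures of 1.86 after and 1.90 before ischemia, held 52471 and 218518. A relation of the members to this measure was not tested.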

How the data were processed

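Plasma RNA was sequenced from 3 monkeys after and before ischemia. After adapter removal the authors kept reads between 18 and 26 nt, discarded those matching other ncRNA and placed the rest on miRNA precursors using ACGT101-miR. Its version, the aligner and genome build are not given in the sources used here. The deposited values are a signal, namely read counts that the authors multiplied by 1 factor per library (normalized counts). 5 empty lines of the table were dropped, and 0 columns lacked a sample. Divided by the factor, 84.0% to 86.9% of the values above 0 were whole within 0.01 counts, and some reads were split between entries.

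Groups were compared on log2(normalized count + 1), using limma 3.58.1 (R 4.3.3), with the variance trend, two-sided, without covariates, for entries with at least 10 normalized counts in 3 libraries, with Benjamini-Hochberg adjustment over all 807 entries. Fold changes are on this scale, which understates changes of low entries. Ratios used exact permutation tests in Python 3.11.15 with SciPy 1.17.1. The scripts were tested on simulated data. Floors cover counting error only.

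Every tested member was named, members below the filter are given by name where above 0, and of the cluster partners counts and the most abundant 5p entry of each stem. Cell type lists cover red blood cells, platelets, leukocytes, liver, brain and intestinal epithelium. The brain list had 2 entries, 1 tested and not called, summing to 0.000972% to 0.00168% of counts after ischemia and 0.00200% to 0.0100% before ischemia. Members and lists were chosen with earlier results of these data known. Neighbours were looked up by name in the RefSeq annotation of the rhesus assembly.

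Same-numbered samples were taken as 1 monkey each: their deviations from the group means correlated at 0.18, 0.36 and 0.29, and those of other pairs at -0.40 to 0.14. Such deviations cancel within a group, so that these correlations depend on each other and do not settle the pairing. The sample labels do not state it. Alternatives were other scalings, pseudocounts (0.5 and 10), filters, variance models, merged entries, the replicate block and left-out libraries; leaving out whole monkeys was added after the data had been seen.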

Additional observations from a re-analysis of the deposited data

How the results depend on the processing

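Of 245 alternative fold changes of members over 21 settings, 225 kept their direction and side of the threshold, 10 reversed, 7 were weaker and 3 stronger. mml-miR-92a-3p was called in 14 of the 21 (adjusted p 0.00179 to 0.150, limma), and limma without trend gave 0.119 and called 0 members lower. Library totals called 2 members lower and, over all entries, 46 lower; with the replicate block as well these were 3 and 81. Without trend 10 entries were higher. The replicate block alone called 17 entries higher and 29 lower, gave mml-miR-92a-3p an adjusted p of 0.0112 and changed no other call among the members; for the ratios it kept the differences (-1.36 for miR-92a-3p over miR-25), with a smallest sign-flip permutation p of 0.25. With libraries left out, 2 to 24 entries were higher, 1 to 28 lower, and 0 to 1 members lower.

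mml-miR-32-3p_L+1 reversed to -0.36 on the log2 scale with library totals, also with the block. With libraries left out, mml-miR-32-3p_L+1 ranged from -0.22 to 0.21, rno-miR-25-5p_R+1_2ss11AT12CT from -0.26 to 0.084 and mml-miR-92b-5p_R-1 from -0.28 to 1.08. The log2 ratio differences ranged from -0.57 to 0.58 for miR-92a-3p over miR-32-5p, from -0.040 to 0.83 for miR-25-5p over miR-25-3p and from -0.94 to 0.18 for miR-92b-5p over miR-92b-3p. Those not overlapping kept their sign: miR-92a-3p over miR-25 -1.77 to -0.88, over miR-92b-3p -2.96 to -2.32 and over miR-363-3p -1.58 to -0.96, miR-92a-1-5p over miR-92a-3p 2.19 to 2.94 and miR-32-3p over miR-32-5p 1.19 to 2.53. The causes were not tested. Low counts limit mml-miR-363-5p, mmu-miR-19b-1-5p and oan-miR-92b.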
